A study of Mus musculus with 6 samples.

Results

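Polycystic kidney disease follows from mutations in genes whose products act in or on the primary cilium of the tubular epithelial cell. Pkd1 and Pkd2 encode polycystin-1 and the cation channel polycystin-2, which form a complex at the cilium and are mutated in the dominant disease. Pkhd1 encodes fibrocystin, a membrane protein of the cilium and basal body, and Dzip1l a protein of the ciliary transition zone, and both are mutated in the recessive disease. Ganab (glucosidase II alpha subunit) and Dnajb11 (a BiP co-chaperone) act in the endoplasmic reticulum, where polycystin-1 is folded, and cause dominant forms of the disease. Pkd1l1 and Pkd2l1 are relatives of Pkd1 and Pkd2 that are known outside the kidney, in left-right patterning of the embryo and in taste cells and spinal cord neurons.

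Open chromatin at these 8 genes was described from a pooled ATAC-seq peak call on mouse kidney. ATAC-seq cuts accessible DNA with the transposase Tn5, so that read pile-ups mark open promoters and enhancers. Nuclei of the cortex were profiled in 3 WT mice and in 3 mice with a tubule-specific Acly knockout (Acly cKO), all in the treatment group labelled Control. By the study's methods, both groups carried floxed Acly (Acly fl/fl): the WT mice were littermates without Cre, and the Acly cKO mice carried Ksp-Cre, driven by the Cdh16 promoter and active broadly in the tubular epithelium. By their labels, the WT libraries came from batches 1 and 2 and the Acly cKO libraries from batches 4 and 5, and effects of batch cannot be told apart from those of genotype. The peak list was called once on all libraries together and does not name the libraries in the pool. Whether further WT libraries of the study, deposited earlier, entered it is not shown by the files. No column belonged to a single library. WT and Acly cKO kidneys were therefore not compared, the depth of each library is unknown, and no value carries a replicate error or a p-value. Bulk cortex mixes many cell types, so an element open in few cells and an element weakly open in many cells cannot be told apart.

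An interval was assigned to a gene if it overlapped the stretch from 3 kb upstream of the gene start to the gene end in GENCODE M39 on GRCm39. This gave 346 distinct intervals with 832 summits, of 279569 intervals in the list. Each interval carries the fold enrichment of its highest summit, the pile-up of reads at that base relative to the background of the whole pool. The fold enrichments were whole multiples of 0.0655 within 0.01 of a step at 100% of 749750 summits. That equals (reads + 1) divided by a constant background of 14.3 reads plus 1, so the number of reads behind each summit could be recovered. Ranges given after a fold enrichment are exact 95% Poisson intervals on those reads. They cover counting error in the pooled reads only, not the spread between mice, and they are too narrow where reads of a pair at the same summit are not independent.

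Sequences that carried motif letters in member intervals, strong and weak, are shown first. HNF1 factors bind an inverted repeat that was searched as GTTAATNATTAAC with at most 2 mismatches. All windows below are 61 bases of GRCm39 on the strand of the gene, with the HNF1 match in capitals. They lie at chr1:20688324-20688384, chr1:20548161-20548221, chr1:20434802-20434862, chr5:104628489-104628549, chr11:8868252-8868312, chr1:20396630-20396690 and chr11:8927977-8928037, in the order printed, on the plus strand for Pkd2 and the minus strand for the others. The Pkhd1 upstream site is the only member promoter with a match, and the other 6 are the only matches within 100 bases of the highest summit of a member interval.
Pkhd1 upstream: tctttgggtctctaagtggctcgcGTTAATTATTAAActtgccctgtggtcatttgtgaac
Pkhd1 intron 35: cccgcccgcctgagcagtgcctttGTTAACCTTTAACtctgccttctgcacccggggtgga
Pkhd1 intron 43: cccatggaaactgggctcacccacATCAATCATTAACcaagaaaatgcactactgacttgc
Pkd2 intron 5: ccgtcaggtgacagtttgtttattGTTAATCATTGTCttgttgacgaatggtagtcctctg
Pkd1l1 intron 23: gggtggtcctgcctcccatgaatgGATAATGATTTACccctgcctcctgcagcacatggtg
Pkhd1 intron 48: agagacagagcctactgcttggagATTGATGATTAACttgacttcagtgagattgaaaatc
Pkd1l1 intron 5: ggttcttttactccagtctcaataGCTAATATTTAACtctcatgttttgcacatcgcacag

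The promoters of Ganab and Dnajb11, both genes of the endoplasmic reticulum, carried other letters. In the 116 bases before the Ganab TSS (chr19:8875301-8875416, plus strand), NFY boxes (CCAAT) and an ETS core (CCGGAAG) are in capitals. In the 118 bases before the Dnajb11 TSS (chr16:22676469-22676586, plus strand), the capitals mark NFY boxes only, which read ATTGG there because they lie on the opposite strand.
Ganab promoter: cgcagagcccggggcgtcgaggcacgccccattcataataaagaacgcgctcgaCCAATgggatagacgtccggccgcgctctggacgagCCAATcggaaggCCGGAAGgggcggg
Dnajb11 promoter: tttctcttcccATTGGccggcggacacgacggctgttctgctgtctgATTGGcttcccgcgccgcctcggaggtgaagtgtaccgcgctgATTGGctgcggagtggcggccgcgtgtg

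Among the intronic elements, 2 had the core of CTCF, the insulator protein, within 100 bases of the highest summit. They lie at chr1:20624795-20624855 and chr11:8933385-8933445, both on the minus strand, with the core in capitals.
Pkhd1 intron 22: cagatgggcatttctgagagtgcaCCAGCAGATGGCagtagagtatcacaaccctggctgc
Pkd1l1 intron 2: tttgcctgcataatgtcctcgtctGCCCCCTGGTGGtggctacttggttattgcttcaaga

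Promoters were open at 7 of the 8 genes, all but Pkd2l1, and strongly so at 6. An interval covered the canonical transcription start site (TSS) of 7 members, as it did for 71.2% of 21757 protein-coding genes, and 6 of these intervals reached a fold enrichment of 5, as did 64.5% of coding genes. The median of the 7 fold enrichments was 44.3, beside a median of 31.8 over the 15496 coding genes with a TSS interval. The median member exceeded 68.5% of those genes. Dnajb11 exceeded 93.7% of them, Pkhd1 81.1%, Pkd1 80.4%, Ganab 68.5%, Dzip1l 58.9% and Pkd2, whose counting interval included the median, 52.4%.

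Dnajb11 had the strongest TSS interval of the members, with a fold enrichment of 73.0 (68.8 to 77.4, 1114 reads at the summit). Its summit lay 134 bases upstream of the Dnajb11 TSS but 9 bases from the start of Tbccd1, a divergent neighbour whose start the interval also covered. The value therefore belongs to a promoter shared by both genes, and by position it was nearer to Tbccd1. Pkhd1 followed with 55.6 (51.9 to 59.5) and Pkd1 with 54.9 (51.3 to 58.8), which overlapped within counting error. Ganab reached 44.3 (41.0 to 47.8), Dzip1l 37.6 (34.6 to 40.8) and Pkd2 33.4 (30.6 to 36.4). Of neighbours in this order, Pkhd1 and Pkd1 had overlapping counting intervals, as did Dzip1l and Pkd2. The counting intervals of Ganab and Dzip1l did not overlap but nearly met, and they leave out the spread between mice. Pkd1l1 stood far below with 2.49 (1.77 to 3.40, 37 reads), higher than the TSS interval of only 2.89% of the coding genes that had one. Pkd2l1 had no interval within 1 kb of its TSS.

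**Figure D1:**
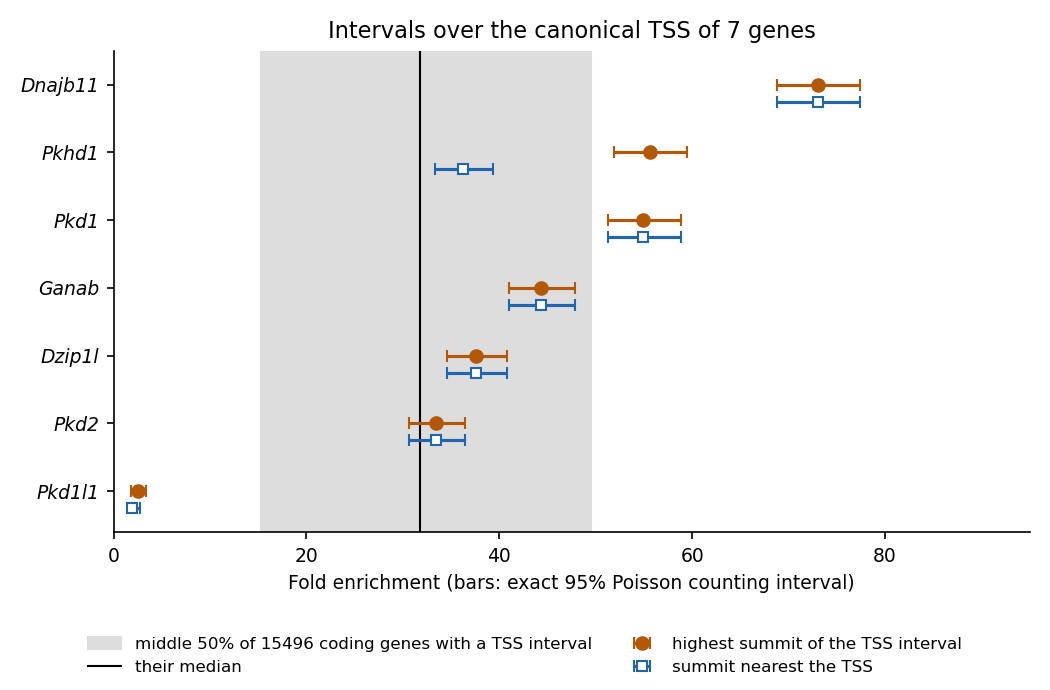
Fold enrichment of the interval over the canonical TSS of 7 genes, with exact 95% Poisson counting intervals as bars, at the highest summit of the interval (filled circles) and at the summit nearest the TSS (open squares). The grey band spans the middle 50% of 15496 coding genes with a TSS interval and the line is their median of 31.8. Pkhd1 is the gene whose markers separate widely, with 55.6 at the highest summit and 36.2 at the summit nearest the TSS.

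Pkd1 and Pkd2, the polycystin pair, had promoter summits of 54.9 and 33.4, with counting intervals that did not overlap. In both genes the highest summit lay just inside the gene, 54 bases downstream of the TSS in Pkd1 and 83 bases in Pkd2, in the 5' UTR of exon 1. Both intervals were broad. The Pkd1 interval (chr17:24766497-24770928) spanned 4432 bases and held 10 summits. Side summits of 27.9 and 15.6 lay 506 bases downstream and 865 bases upstream of the TSS. A start of the long noncoding RNA Gm65616 also lay in this interval, and its part in the summits was not tested. The Pkd2 interval (chr5:104605815-104609504) spanned 3690 bases with 8 summits, and its side summits reached 12.4 within exon 1. An SP box (GGGGCGGGG) lay 2 bases from the Pkd1 summit, and it was the only SP match in a member summit window.

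The Pkhd1 promoter consisted of separate summits within a wide interval (chr1:20680787-20690362). It spanned 9576 bases and held 26 summits, beside a median interval width of 382 bases over the member intervals. The highest summit, 55.6, lay 1505 bases upstream of the TSS, where no other transcript start is annotated, and the nearest annotated start was that of Pkhd1 itself. A separate summit of 36.2 (33.3 to 39.3) sat 37 bases upstream of the TSS, and the next highest was 8.18. The HNF1 match of the promoter, with 1 mismatch, was centred 66 bases upstream of the TSS and 29 bases from the summit of 36.2. The window around the upstream summit of 55.6 held none of the motifs searched.

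**Figure D2:**
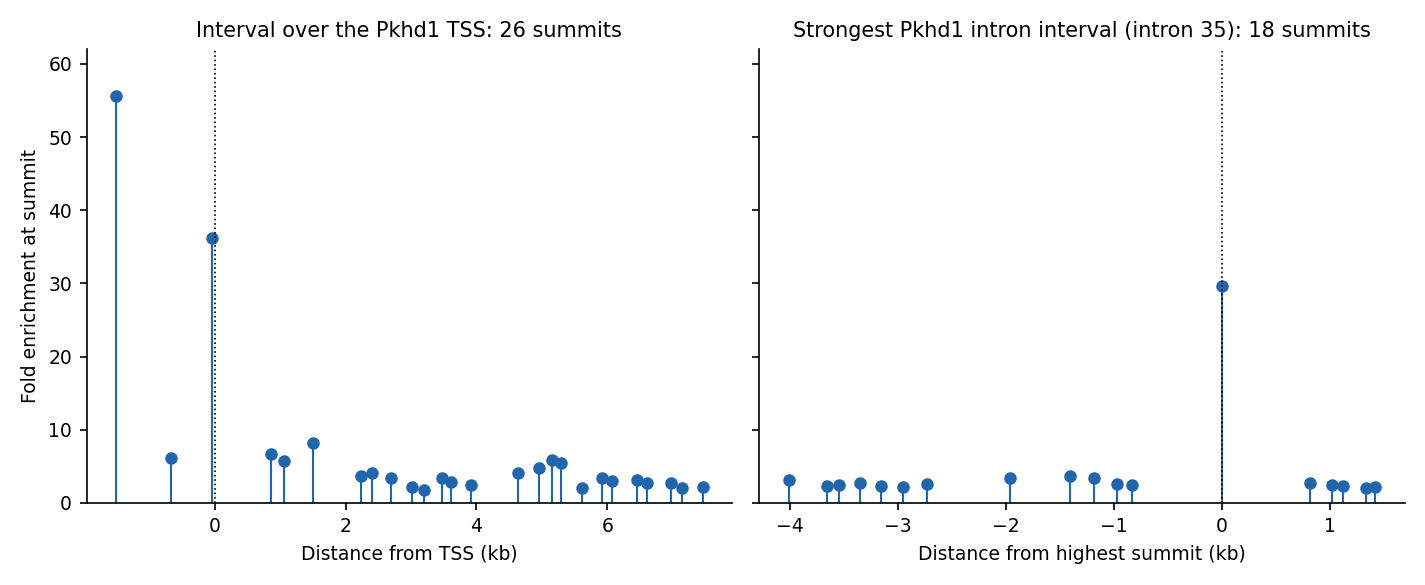
Fold enrichment at each summit of the interval over the Pkhd1 TSS (left, by distance from the TSS in kb) and of the strongest Pkhd1 intron interval, in intron 35 (right, by distance from its highest summit in kb), with each stem standing for 1 summit. The promoter interval has 2 dominant summits, 55.6 upstream and 36.2 at the TSS, while the intron interval has 1, at 29.6.

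Dzip1l also had a composite promoter. Its TSS interval (chr9:99510078-99517249) spanned 7172 bases with 21 summits. That interval also covered a start of the long noncoding RNA Gm68333, whose part in the summits was not tested. Below the highest summit of 37.6 at 263 bases, summits of 29.5 and 21.6 lay in intron 1, 2463 and 2830 bases downstream of the TSS. An RFX match (inverted repeat GTTGCCNNGGCAAC, 2 mismatches), the motif of a family of ciliary gene regulators, was centred 53 bases from the summit of 29.5. That match lay outside the window around the highest summit. It came from a search of the whole 7172 bases, for which no share over all intervals was computed.

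The Ganab and Dnajb11 promoters held ETS and CCAAT letters at or near their summits. In Ganab the ETS match was centred on the highest summit, 15 bases upstream of the TSS, and CCAAT boxes were centred 28 and 64 bases upstream. In Dnajb11 an ETS match, outside the stretch printed above, was centred 10 bases from the highest summit, and 3 of its CCAAT boxes, all on the opposite strand, were centred 28, 71 and 107 bases upstream of the TSS. Over all promoters from 250 bases before to 50 bases after the TSS, 10.3% held the ETS letters and 39.9% CCAAT. In that window CCAAT was not particular to these genes, since the Pkd1l1 promoter held it too. No other member promoter held the ETS letters.

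The members differed widely in promoter base composition. The ratio of observed to expected CpG over that 300-base promoter was 1.10 in Dnajb11 and 1.07 in Ganab, higher than in 97.9% and 97.2% of coding genes. It was 0.538 in Pkd1, 0.410 in Pkd2, 0.281 in Pkhd1 and 0.278 in Dzip1l, all under the limit of 0.6 used here for a CpG-rich promoter. The lowest ratios were 0.107 in Pkd1l1 and 0.103 in Pkd2l1, the genes with the weak and the absent TSS interval. Over all coding genes with a TSS interval, the median fold enrichment was 19.3 in 6378 genes under this limit and 39.5 in 9118 genes at or over it. Within the CpG-poor class, Pkhd1 exceeded 90.9% of genes, Pkd1 90.5%, Dzip1l 76.2% and Pkd2 71.1%. The Pkhd1 rank rests on the summit 1505 bases upstream, outside this promoter window. At the summit nearest the TSS, Pkhd1 had 36.2, below the 37.6 of Dzip1l, and it exceeded 62.4% of all coding genes with a TSS interval ranked the same way. With 1000 bases around the TSS in place of the promoter window, Pkd1 (0.685) and Pkd2 (0.775) passed 0.6 while Pkhd1 stayed at 0.259, so the class of the polycystin pair depended on the window.

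**Figure D3:**
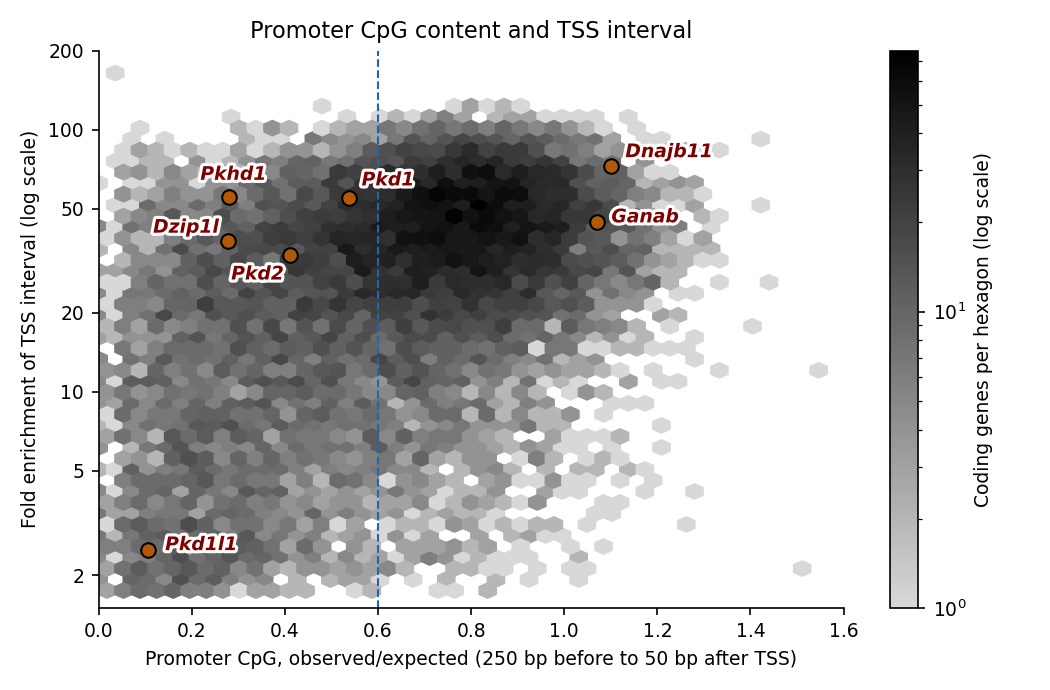
Fold enrichment of the TSS interval (log axis) against promoter CpG, observed over expected, with coding genes binned in grey hexagons and the 7 members with a TSS interval as labelled points. The dashed line marks a ratio of 0.6, and Pkhd1, plotted at its upstream summit of 55.6, stands high among promoters on its left while Pkd1l1 lies near the bottom.

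Away from promoters, most member intervals were weak. Of the 346 intervals, 38 (11.0%) reached a fold enrichment of 5, beside 24.5% of all intervals, and the medians were 2.23 and 2.55. Distal intervals, more than 1 kb from the TSS of any protein-coding transcript, numbered 334, and 31 of them (9.28%) reached 5 beside 20.8% of 254452 distal intervals in the list. Pkhd1 held most of the distal intervals, and 16 of its 242 (6.61%) reached 5. Pkd2 with 4 of 13 (30.8%) and Pkd1l1 with 8 of 29 (27.6%) had a larger share than the list, but these counts are small and the difference was not tested.

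**Figure D4:**
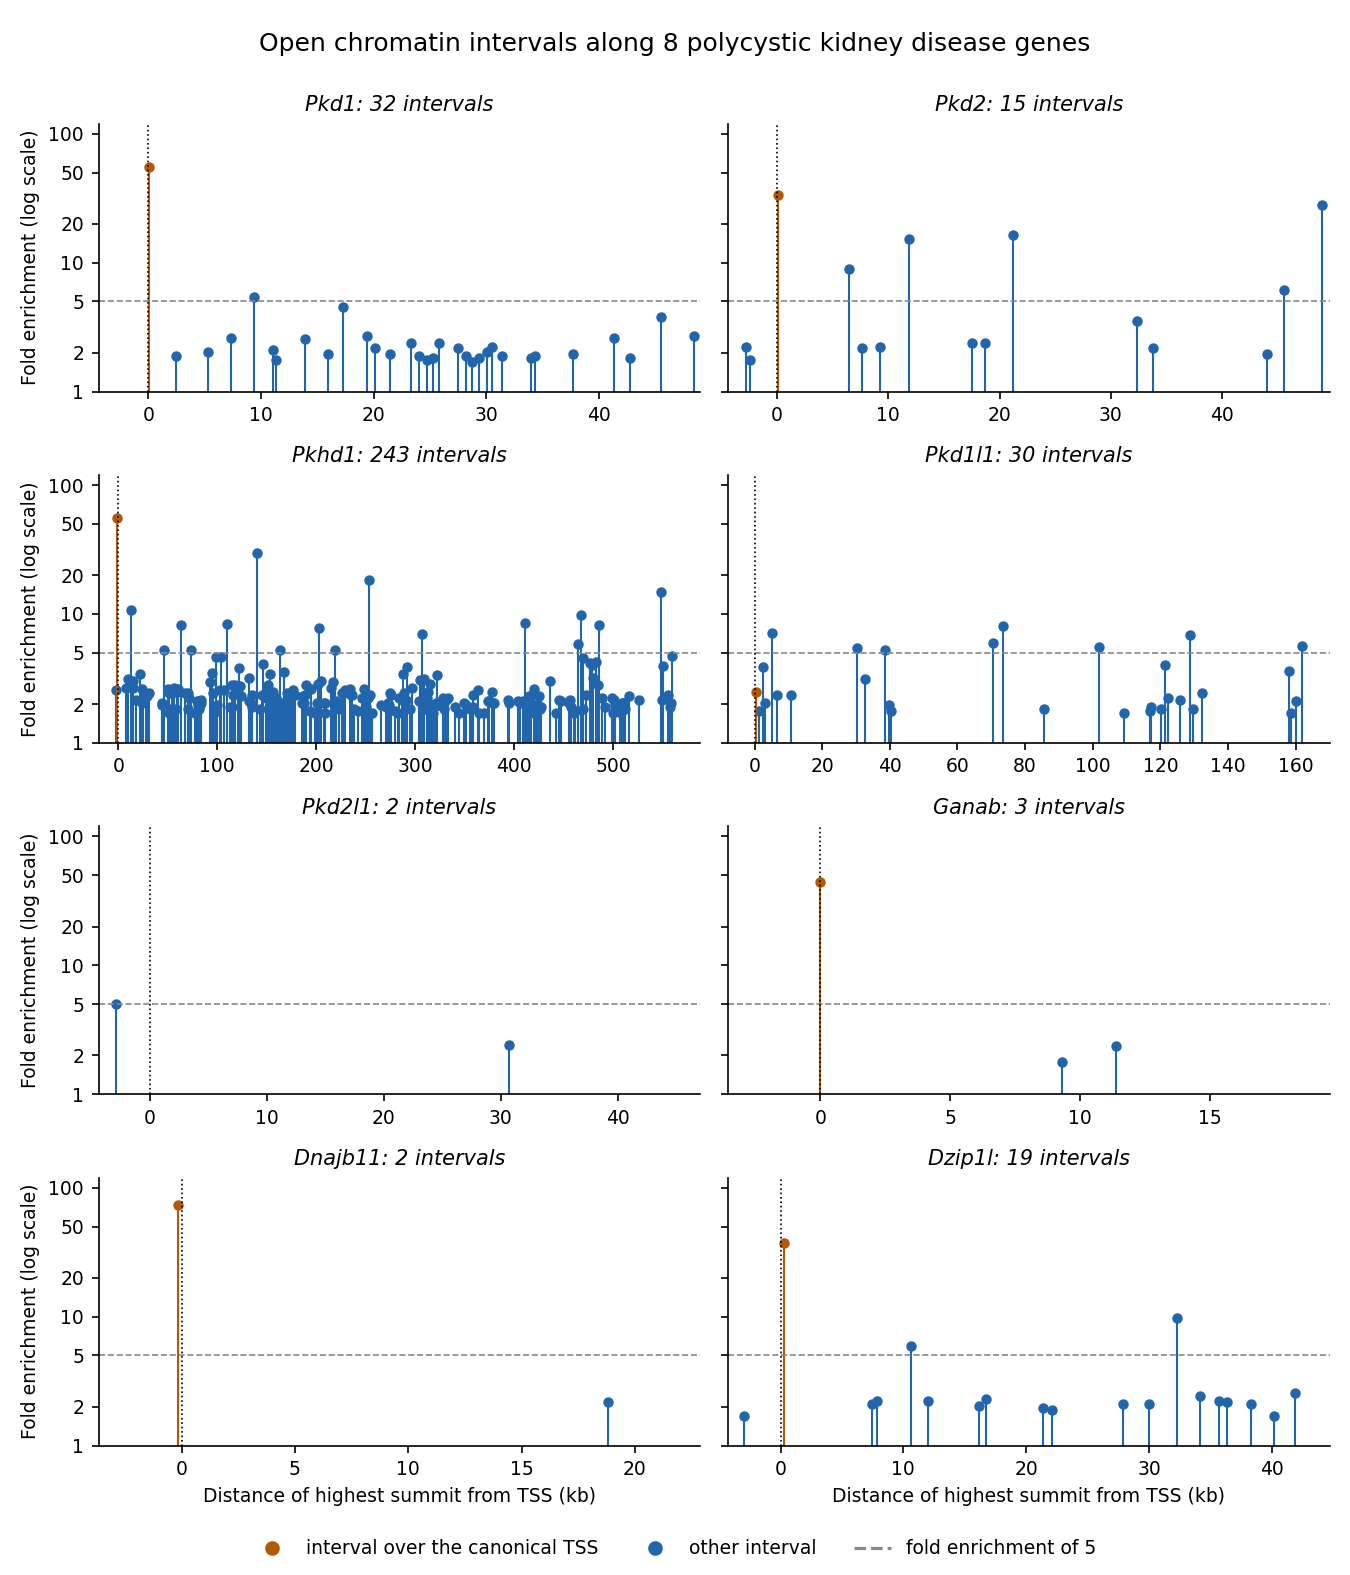
Fold enrichment (log axis) of each interval at the 8 genes against the distance of its highest summit from the TSS in kb, with 1 stem per interval, the interval over the canonical TSS in orange and the others in blue. The dashed line marks a fold enrichment of 5. Pkhd1 shows 243 intervals, mostly low. Pkd2 and Pkd1l1 have fewer intervals, with a larger share above the line on small counts, and Pkd2l1 has none over its TSS.

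Pkhd1 carried 243 of the 346 intervals (70.2%), rank 2 among all 21757 coding genes, whose median was 4.0. Its region of 563 kb is long, so the count was also set beside long genes. Among 235 coding genes with a region of at least 500 kb, the median was 39.0 intervals and 5.15 per 100 kb, and Pkhd1, with 43.1 per 100 kb, ranked 1 by density. Its intervals covered 29.1% of the region, beside a median of 2.95% among those long genes and 16.7% over all coding genes. Among all coding genes Pkhd1 stood out less, higher than 85.1% by density and 64.0% by share covered. The intervals ran the whole gene, with 54 between 100 and 200 kb from the TSS, 45 between 200 and 300 kb, 38 between 300 and 400 kb, 41 between 400 and 500 kb and 18 beyond. By position of the highest summit, 228 of the 243 were intronic and 13 lay in coding exons, and 88 had a q under 1e-05.

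**Figure D5:**
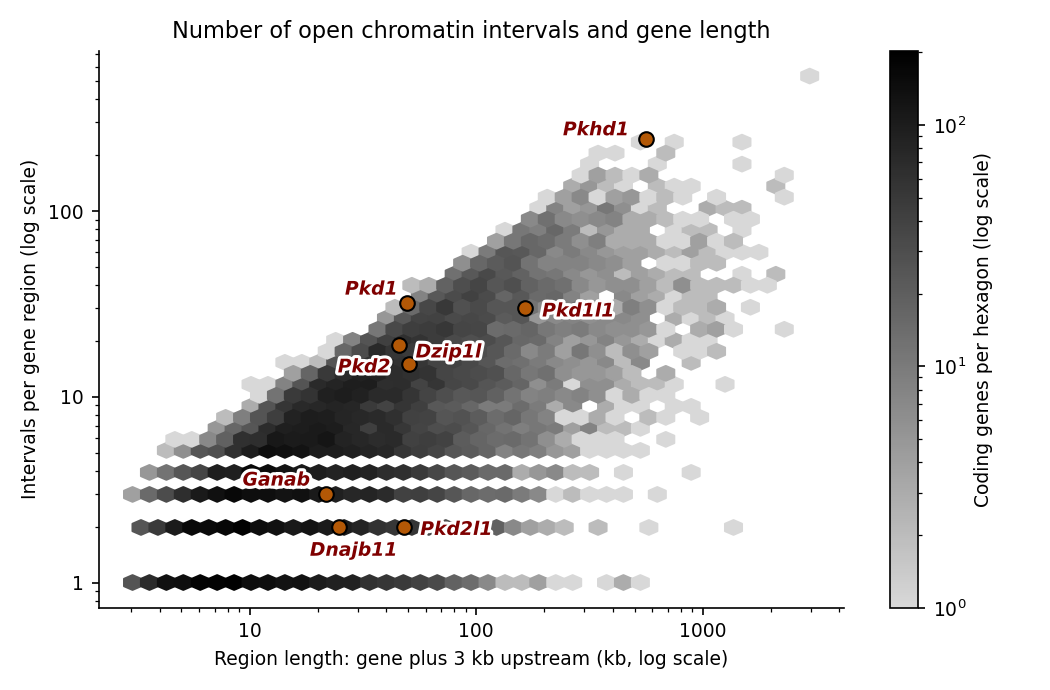
Number of intervals per gene region against region length in kb (both log axes), with coding genes that have at least 1 interval binned in grey hexagons and the 8 members as labelled points. Pkhd1, with 243 intervals over 563 kb, and Pkd1, with 32 over 49.7 kb, lie along the upper edge for their length, and Pkd2l1, with 2, near the lower.

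Within this field of weak intervals, a few Pkhd1 introns held strong elements. The strongest lay in intron 35 (chr1:20546671-20552308), 140097 bases downstream of the TSS, with 29.6 (26.9 to 32.4, 451 reads), above 99.2% of all distal intervals. Its interval was 5638 bases wide with 18 summits, and every other summit in it was at 3.67 or lower. The HNF1 match printed above was centred on its highest summit. Intron 43 (chr1:20434350-20435254) followed with 18.2 (16.1 to 20.5) and a single summit, 253435 bases from the TSS, and its HNF1 match was centred 21 bases from that summit. Near the 3' end, intron 66 (chr1:20139738-20140603) held 14.8 (12.9 to 16.9), 548179 bases from the TSS. Intron 5 held 10.7 and intron 60 held 9.89, and the other 11 strong intronic intervals of the gene lay between 5.24 and 8.58. The CTCF core in intron 22 was centred on a summit of 8.18.

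Of the 13 distal intervals of Pkd2, 4 (30.8%) were strong, most of them in introns. The share was 27.6% in Pkd1l1, and such small counts do not rank these genes. Intron 5 (chr5:104626500-104630975) reached 16.3 (14.3 to 18.5), intron 2 (chr5:104617632-104621137) 15.3 (13.4 to 17.4) and intron 1 (chr5:104609652-104614398) 8.97 (7.54 to 10.6). The values in introns 5 and 2 overlapped within counting error, and they were above 96.5% and 96.1% of distal intervals in the list. The HNF1 match in intron 5 lay 29 bases from the highest summit. A further interval in the 3' UTR had 6.15. The interval at the very end of the gene (chr5:104654253-104659723) had 28.2 (25.6 to 31.0), but it overlapped the Pkd2 region by 321 bases only, and its summit lay 75 bases from the start of Thoc2l, a neighbouring gene. By position it was the Thoc2l promoter.

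Pkd1 showed the opposite arrangement. Beyond its promoter, 1 interval in intron 1 passed 5, with 5.43 (4.34 to 6.73), 9393 bases downstream of the TSS. The other intervals had fold enrichments of 4.52 or less, with a median of 2.03 over the gene, yet their density of 64.4 per 100 kb was higher than in 97.8% of coding genes. The highest summit lay in a coding exon in 17 of 32 Pkd1 intervals (53.1%), while coding sequence made up 25.9% of the region. For Pkhd1 the same shares were 5.35% and 2.16%. The 201-base windows around the Pkd1 coding-exon summits had a median GC content of 57.2%, against 51.2% in the other Pkd1 windows and 50.2% over all intervals, and the part of GC content in these low values was not tested. The last Pkd1 intervals overlapped Tsc2, the tuberous sclerosis gene that ends beside it, with 3.80 and 2.68, and the latter reached into the Pkd1 region by 21 bases.

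Pkd1l1 had a weak promoter interval and, in its introns, 8 intervals with a fold enrichment of at least 5. Its strongest interval lay in intron 24 (chr11:8864684-8865726), 73425 bases from the TSS, with 8.12 (6.76 to 9.67). Intron 2 followed with 7.07 and intron 46 with 6.81, and 5 more intronic intervals lay between 5.24 and 5.96. These 8 were picked by the limit of 5, so that they exceed the TSS value of 2.49 (upper counting bound 3.40) follows from the choice. The median of all 27 intronic intervals of the gene was 2.36. The intron 2 summit lay 32 bases from its CTCF core, and the intron 23 summit, at 5.96, 53 bases from its HNF1 match.

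Pkd2l1 had only 2 intervals, both narrow, of 191 and 195 bases. An interval 2898 bases upstream of the TSS had 4.98 (3.93 to 6.22), with a CTCF core 10 bases from its summit, and an interval in intron 2 had 2.42 (1.72 to 3.33). They covered 0.799% of its region, beside a median of 16.7% over coding genes. For a channel known from taste cells and neurons, no promoter interval was called in the pool, and a signal under the caller's threshold would not be listed.

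The genes of the endoplasmic reticulum and Dzip1l differed in what lay beyond the promoter. Ganab had 2 further intervals, of 1.77 and 2.36, both in coding exons, and its TSS interval also overlapped the gene Ints5 and the model Gm49416. Dnajb11 had 1 further interval, of 2.16, at the 3' end. Dzip1l had 18 further intervals, and those in intron 13 (chr9:99542556-99545393), with 9.69 (8.20 to 11.4), and intron 4, with 5.96 (4.80 to 7.31), passed 5. Thus 2 of its 18 distal intervals (11.1%) reached 5, beside 20.8% of distal intervals in the list. Pkhd1, Pkd2, Pkd1l1 and Pkd1 also had intronic intervals above 5. Ganab and Dnajb11 had only 2 and 1 intervals outside the promoter, all at 2.36 or lower.

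Over intervals of every strength, HNF1 letters had a lower share at the members than in the list, and among the stronger intervals a higher one. A match lay within 100 bases of the highest summit in 6 of 346 member intervals (1.73%), beside 2.71% of all 279569 intervals. Of the 38 member intervals with a fold enrichment of at least 5, 4 had a match, beside 5.83% of all such intervals. Of the 11 with at least 15, 3 had one (27.3%), beside 6.05%. Of the 4 distal member intervals at that strength, in Pkhd1 introns 35 and 43 and Pkd2 introns 5 and 2, 3 had a match, beside 11.2% of 10324 distal intervals of that strength in the list. These splits by strength were chosen after the values were seen, and such small counts carry no test. Among member intervals under 5, 2 of 308 (0.649%) had a match, beside 1.70% of all intervals under 5. Matches in promoters were rare, at 1.26% of coding promoters, and Pkhd1 was the only member with one.

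The shares of the other motifs stand beside those of the list with no test, and all but CCAAT rest on at most 6 member windows. CTCF cores lay in 3 member windows (0.867%), beside 1.86% of all windows, in Pkhd1, Pkd1l1 and Pkd2l1. RFX letters with at most 2 mismatches lay in 3 (0.867%, all windows 1.13%), GRHL letters (AACCNGTT) in 5 (1.45%, all windows 1.70%) and ETS letters in 6 (1.73%, all windows 1.89%). SP boxes lay in 1 (0.289%, all windows 1.76%) and ERR letters (TCAAGGTCA) in 1 (0.289%, all windows 0.682%). No member window held HNF4 letters (CAAAGTCCA, all windows 0.887%) or NRF1 letters (GCGCATGCGC, all windows 0.101%). CCAAT, a short and frequent word, lay in 91 (26.3%, all windows 22.9%). Both strands were searched, and no matches of different motifs shared bases. The median GC content of the windows was 47.8% at the members and 50.2% over all intervals, which bears on how often such letters occur. A match is a stretch of letters and not evidence of a bound factor.

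Other genes of cystic kidney disease and of the polycystin family mostly had open promoters. Of 31 such genes, 29 had a TSS interval, beside 71.2% of all coding genes. All 29 reached a fold enrichment of 5, beside 64.5% of coding genes. Their median was 40.1, beside 31.8 over coding genes with a TSS interval. The genes without a TSS interval were Pkd1l2 and Pkd1l3, relatives of Pkd1. Together with Pkd2l1, the genes of these lists without a TSS interval thus all belonged to the polycystin family. Within the family, Pkd2l2 had 25.3 and Pkdrej, a sperm protein gene, 8.97. Pkhd1l1, listed with them but a relative of the fibrocystin gene Pkhd1, had 7.46. All 8 genes of the endoplasmic reticulum had a TSS interval, from 10.7 in Alg9, a mannosyltransferase, to 87.9 in Prkcsh, which encodes the beta subunit that pairs with the Ganab product in glucosidase II. The counting interval of Prkcsh (83.2 to 92.7) lay above that of Ganab. All 10 ciliary genes had one, the highest being 92.1 in Invs, a nephronophthisis gene. Among regulators, Glis2 had the highest value, 41.9. Among growth and signalling genes, Lrp5 had 13.4 and Vhl, the von Hippel-Lindau gene, 32.9.

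Marker genes were set beside the 71.2% of coding genes that had a TSS interval. A TSS interval was present in 5 of 5 proximal tubule markers, 5 of 5 markers of the thick ascending limb and distal tubule, 4 of 5 of the collecting duct and 5 of 5 of podocytes. It was present in 4 of 5 endothelial, 3 of 5 stromal and 2 of 5 immune markers, and in 2 of 6 genes of other organs. The median fold enrichment was 15.1 for proximal tubule, 15.2 for thick ascending limb and distal tubule, 13.8 for collecting duct, 9.76 for podocyte, 3.57 for endothelial and 5.63 for stromal markers with an interval, all under the coding median of 31.8. The lowest value of a tubule or collecting duct marker with an interval was 4.19, in the water channel gene Aqp2. The immune values were 1.90 in Ptprc and 27.6 in Csf1r, and those of other organs were 1.96 and 2.49. Each value is that of the highest summit of the interval, which can lie far from the TSS. The distance was 4502 bases in Csf1r, 4581 in Kcnj1 and 18535 in Slc34a1. The Pkd1l1 value of 2.49 was equal to the higher value of the other organs. Its counting interval (1.77 to 3.40) also overlapped those of some markers of kidney cell types. Among them were the endothelial Emcn, 2.75 (1.99 to 3.71), and Tek, 3.01 (2.21 to 4.01), and the podocyte gene Nphs1, 3.14 (2.33 to 4.16). Cdh16, whose promoter also drives the Cre transgene of the Acly cKO mice, had the highest marker value, 162 (156 to 169), and the part of transgene copies in it was not tested. Which cell types contributed the open chromatin at the 8 genes was not tested.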

How the data were processed

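ATAC-seq libraries of mouse kidney were grouped by genotype from their labels. By their methods, the authors used fastp for trimming and Bowtie2 2.3.4.3 for alignment to mm39, dropped duplicates and multiply mapped reads, called peaks and summits with MACS3 3.0.0 at a q of 0.05 and removed blacklisted regions with bedtools 2.29.1 (versions from the submitters' processing notes). For every summit, the deposited peak list holds a fold enrichment (a linear ratio computed by the authors), the −log10 p-value and −log10 q-value of the authors' caller, and the summit offset. A second deposited file, made before filtering, repeats the −log10 q-value.

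Rows were grouped into distinct intervals, with the values taken at the summit of highest −log10 q. Genes, canonical TSS, exons and sequence came from GENCODE M39 and GRCm39, and positions count from 1. Motifs were searched 100 bases either side of the highest summit. Named intervals were the TSS interval, the strongest by q and up to 4 others with a fold enrichment of at least 5, and all where a gene had 3 or fewer, together with each motif match. Other pathway genes were named where they had no TSS interval or were the lowest or highest of their role, and 2 of these are not reported here. The members, lists and motifs were chosen with earlier results of these data known. Overlap, motif search and read recovery were tested on simulated data. Python 3.11.15, pandas 2.3.3, numpy 2.4.6, scipy 1.17.1 and pysam 0.24.0 were used.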

Additional observations from a re-analysis of the deposited data

How the results depend on the processing

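The number of intervals at the 8 genes depended on the threshold and on the unit counted. It fell from 346 to 127 at a q under 1e-05 and to 38 at a fold enrichment of at least 5, and counting summits inside the regions gave 812, in the filtered list and in the list before filtering. A q under 0.01, the gene body alone, 10 kb on either side, and stricter overlap rules gave between 286 and 381. Counts at single genes stayed within 1.5 times of the reported count in 39 of 72 gene and setting pairs and moved further in 33. A TSS interval was found at 6 or 7 members and at 29 of the other 31 genes under every alternative run, and the median percentile of the members' TSS intervals lay between 64.4 and 70.2. HNF1 matches were the least stable count, with 0 member intervals at 1 mismatch, 31 at 3 mismatches, 11 when every summit was searched and 17 over whole intervals, against 6 as reported, so the number of matches rests on the mismatch limit. At 3 mismatches, 8.96% of member intervals and 9.49% of all intervals had one. No paired analysis was possible because the deposited list is 1 pooled call without a column for any library, and for the same reason no replicate could be left out. Counting error limits intervals of few reads: the lowest fold enrichments rest on under 30 reads at a summit.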
